A study of Mus musculus with 53 samples.

Results

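The genes described here encode the LSD1-CoREST-HDAC corepressor and enzymes it shares with related complexes: Kdm1a, Rcor1, Rcor2, Rcor3, Hdac1, Hdac2, Hdac3, Gse1 and Hmg20b. They were taken by symbol, and all 9 were found among the 55573 genes of the bulk tables and among the 41157 genes of the single-cell matrices. Whole mouse cerebellum was profiled at postnatal day 2 (P2) by bulk RNA-seq and at postnatal day 7 (P7) by single-cell RNA-seq with a split-pool kit, each library from 1 cerebellum. The mutants carried the Atoh1Cre driver with floxed alleles, as Atoh1Cre; Insm1fl/fl or as Atoh1Cre with Tead1fl/fl and Tead2fl/fl (the Tead1/2 mutants). The controls carried the same floxed alleles without Cre, Insm1fl/fl or Tead1fl/fl; Tead2fl/fl. The bulk P2 set had 4 mutants of each kind beside 4 Insm1 and 3 Tead1/2 controls, with the 2 alleles in separate labelled batches. At P7 each allele had 2 controls and 3 mutants in 1 batch, and library 1 of every group held all lobules while the others lacked lobules IX and X. Atoh1 is active in rhombic lip derivatives, chiefly granule cell progenitors, so Cre acts in part of the cerebellum and both assays also hold cells with intact alleles. The ATAC-seq and CUT&RUN samples of the series were not analysed here.

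KDM1A, also called LSD1, is an amine oxidase that removes methyl groups from histone H3 lysine 4. It is held on nucleosomes by a CoREST scaffold, RCOR1, RCOR2 or RCOR3. The scaffold can also carry the deacetylases HDAC1 and HDAC2, so that a single complex can take both active marks off a gene. HMG20B, or BRAF35, is a DNA-binding subunit and GSE1 a coiled-coil subunit of the same assembly, while HDAC3 is the deacetylase of the separate NCoR complexes. Zinc-finger proteins with a SNAG peptide, among them INSM1, GFI1 and the Snail family, dock on KDM1A through that peptide. TEAD proteins bind DNA and work with activating or repressing partners. In the nervous system the complex is known for silencing neuronal genes outside neurons, with REST, and for acting in neural progenitors.

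RefSeq promoter entries of the GRCm38.p6 assembly were present for 7 of the 9 genes, with 11 start sites, and the 250 bases before each start were searched on both strands. The core TEAD motif, GGAATG, was in 0 of these 7 genes and in 12.6% of all 32851 promoter entries. The G-run of the INSM1 consensus, GGGGGC, was in 7 of the 11 member entries, from 5 of the 7 genes, and in 25.6% of all entries. These letters also overlap those of GC boxes. Gse1 has a match at 3 start sites, of which 1 is shown. The windows of 30 bases around the match are given for the members that differed most often between genotypes in the comparisons that follow, read 5′ to 3′ along the gene, with the match in capitals (GCCCCC is the motif on the other strand).
Rcor2, chr19:7267325-7267354, plus strand: gggacagcgggcGGGGGCttcggcctgtgt
Kdm1a, chr4:136602832-136602861, minus strand: ctcccaatcgcaGGGGGCgctctaggtcag
Gse1, chr8:120537206-120537235, plus strand: gccaggagcgcgGGGGGCggcacctacccg
Hdac2, chr10:36974465-36974494, plus strand: cgtagttgtggtGCCCCCctccgcgcagcc
A match of 6 letters describes the sequence and is not a binding site. In the same annotation the gene bodies lie on chromosome 19 from 7267394 to 7275225 (Rcor2), on chromosome 4 from 136550533 to 136602787 (Kdm1a), on chromosome 8 from 120228501 to 120581383 (Gse1) and on chromosome 10 from 36974297 to 37001889 (Hdac2), so the Rcor2 and Kdm1a windows lie upstream of the annotated gene and the Gse1 and Hdac2 windows inside it, before one of its start sites.

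Bulk libraries held 28066700 to 64518800 expected counts. The single-cell libraries kept 77236 cells, 4662 to 10423 a library, with 85001608 to 187235440 transcripts (UMIs), and 0 of 2894626 barcodes were shared between libraries. In the P2 libraries Insm1 was at 30.8, 31.4, 56.5 and 71.5 normalised CPM (counts scaled to a common library size) in Insm1 controls 1 to 4 and at 10.6, 8.39, 16.1 and 15.1 in the mutants (log2 change -1.91, SE 0.303, edgeR adjusted p = 0.0194). Tead1 and Tead2 overlapped between the Tead1/2 groups in these bulk totals, with Tead2 at 21.5 to 25.7 CPM in controls and 17.6 to 26.2 in mutants, so the totals do not check that deletion. In granule lineage cells at P7, Insm1 was at 66.6 and 73.7 CPM in Insm1 controls against 6.51 to 20.6 in mutants. Tead2 was at 36.1 and 37.5 CPM in the P7 Tead1/2 controls against 10.3 to 12.3 in the mutants, while Tead1 was higher in those mutants, 1275 to 1356 against 631 and 640 CPM. The library labelled Tead1/2 mutant 4 stood apart at P2: Ttn, the giant sarcomere protein, was at 10.4 CPM there, 58.8 to 72.2 in the other Tead1/2 mutants and 14.4 to 16.1 in their controls. P2 calls and changes with Tead1/2 deletion are therefore given with and without it.

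Levels of these transcripts by cell class were read in the P7 controls. Clusters were named only from marker lists, so each class name means cells like that type. Levels are plain CPM of the summed counts of a class in a library, with the SD over libraries. The summed level of a list of granule markers was not confined to granule cells. In Insm1 controls it was 11239 to 11476 CPM in the granule lineage, 8602 to 8907 in microglia and 7784 to 8354 in endothelial cells. In Tead1/2 controls it was 10859 to 11435, 6534 to 7346 and 5199 to 6498 CPM in the same order. The list includes cell cycle and general neuronal genes. How much of the level of a gene in a class comes from RNA of other classes was not tested. Kdm1a was highest in granule neurons, at 321 ± 11.7 CPM (SD, n = 4 controls), and its lowest library there, 307, was above the highest in the next class, GABAergic interneurons at 258 ± 16.6. In granule progenitors Kdm1a was at 238 ± 14.3 CPM, with a range over libraries that meets the lower end of that of the interneurons, and the lowest class was choroid plexus or ependyma at 194 ± 22.6 (n = 3). The neuron to progenitor difference was on average 0.44 on the log2 scale, from 0.34 to 0.48, and had the same sign in 4 of 4 controls.

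The 3 CoREST scaffolds had different profiles over the same classes. Rcor2 was at 125 ± 9.4 CPM in granule progenitors, 115 ± 9.7 in granule neurons and 105 ± 5.0 in GABAergic interneurons (n = 4), whose ranges overlap one after the other. Rcor2 then dropped to 80.1 ± 4.9 CPM in astroglial cells without overlap, and was lowest in endothelial cells, 59.8 ± 12.5, and choroid plexus, 59.0 ± 15.6. Rcor1 was highest in granule progenitors, 152 ± 8.2 CPM, against 139 ± 4.8 in endothelial cells and 116 ± 5.5 in granule neurons, and the progenitor and endothelial ranges touch. Rcor3 was nearly level, from 65.6 ± 2.4 CPM in granule neurons to 53.4 ± 1.6 in choroid plexus.

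Among the other subunits, Gse1 was at 1347 ± 143 CPM in granule progenitors (n = 4), above every library of the next class, GABAergic interneurons at 832 ± 78.6, and fell to 669 ± 95.4 in granule neurons, a log2 difference of -1.01 on average that was negative in 4 of 4 controls. Hmg20b also stood lower in granule neurons, at 12.7 ± 1.2 CPM against 25.8 ± 2.8 in progenitors (-1.02, 4 of 4 controls). Its highest level was in endothelial cells, 32.1 ± 2.8 CPM, and granule neurons were the lowest class with no overlap with the one above. Progenitors thus held the highest mean of Gse1, Rcor1 and Rcor2, as well as of Hdac2 and Hdac3 (below), and neurons that of Kdm1a and Rcor3. Only for Gse1 and Kdm1a did the range of the highest class not overlap that of the next. No test was made between classes, since they come from clustering the same cells.

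The deacetylases differed less. Hdac2 was at 145 ± 7.2 CPM in granule progenitors, 140 ± 7.7 in granule neurons and 132 ± 1.7 in GABAergic interneurons, which overlap in order. All other classes were below these, from meningeal fibroblasts at 120 ± 5.6 to choroid plexus at 97.3 ± 12.2. Hdac3 ran from 24.2 ± 0.77 CPM in granule progenitors to 18.3 ± 1.3 in Purkinje cells (n = 2, both Insm1 controls), each neighbour overlapping the next. Hdac1 ran from 30.9 ± 11.7 CPM in endothelial cells to 17.8 ± 0.51 in Purkinje cells (n = 2, both Insm1 controls), each class overlapping the next in the order. Within libraries granule neurons were below progenitors in 4 of 4 controls for Hdac1, by -0.56 to -0.21 on the log2 scale, and for Hdac3, by -0.57 to -0.20. Hdac1 differed by allele: granule neurons of the Insm1 controls had Hdac1 at 13.5 and 17.4 CPM, those of the Tead1/2 controls at 29.5 and 31.1, while the P2 controls overlapped, at 26.2 to 27.4 and 22.6 to 27.8 normalised CPM. The cause was not tested.

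**Figure D1:**
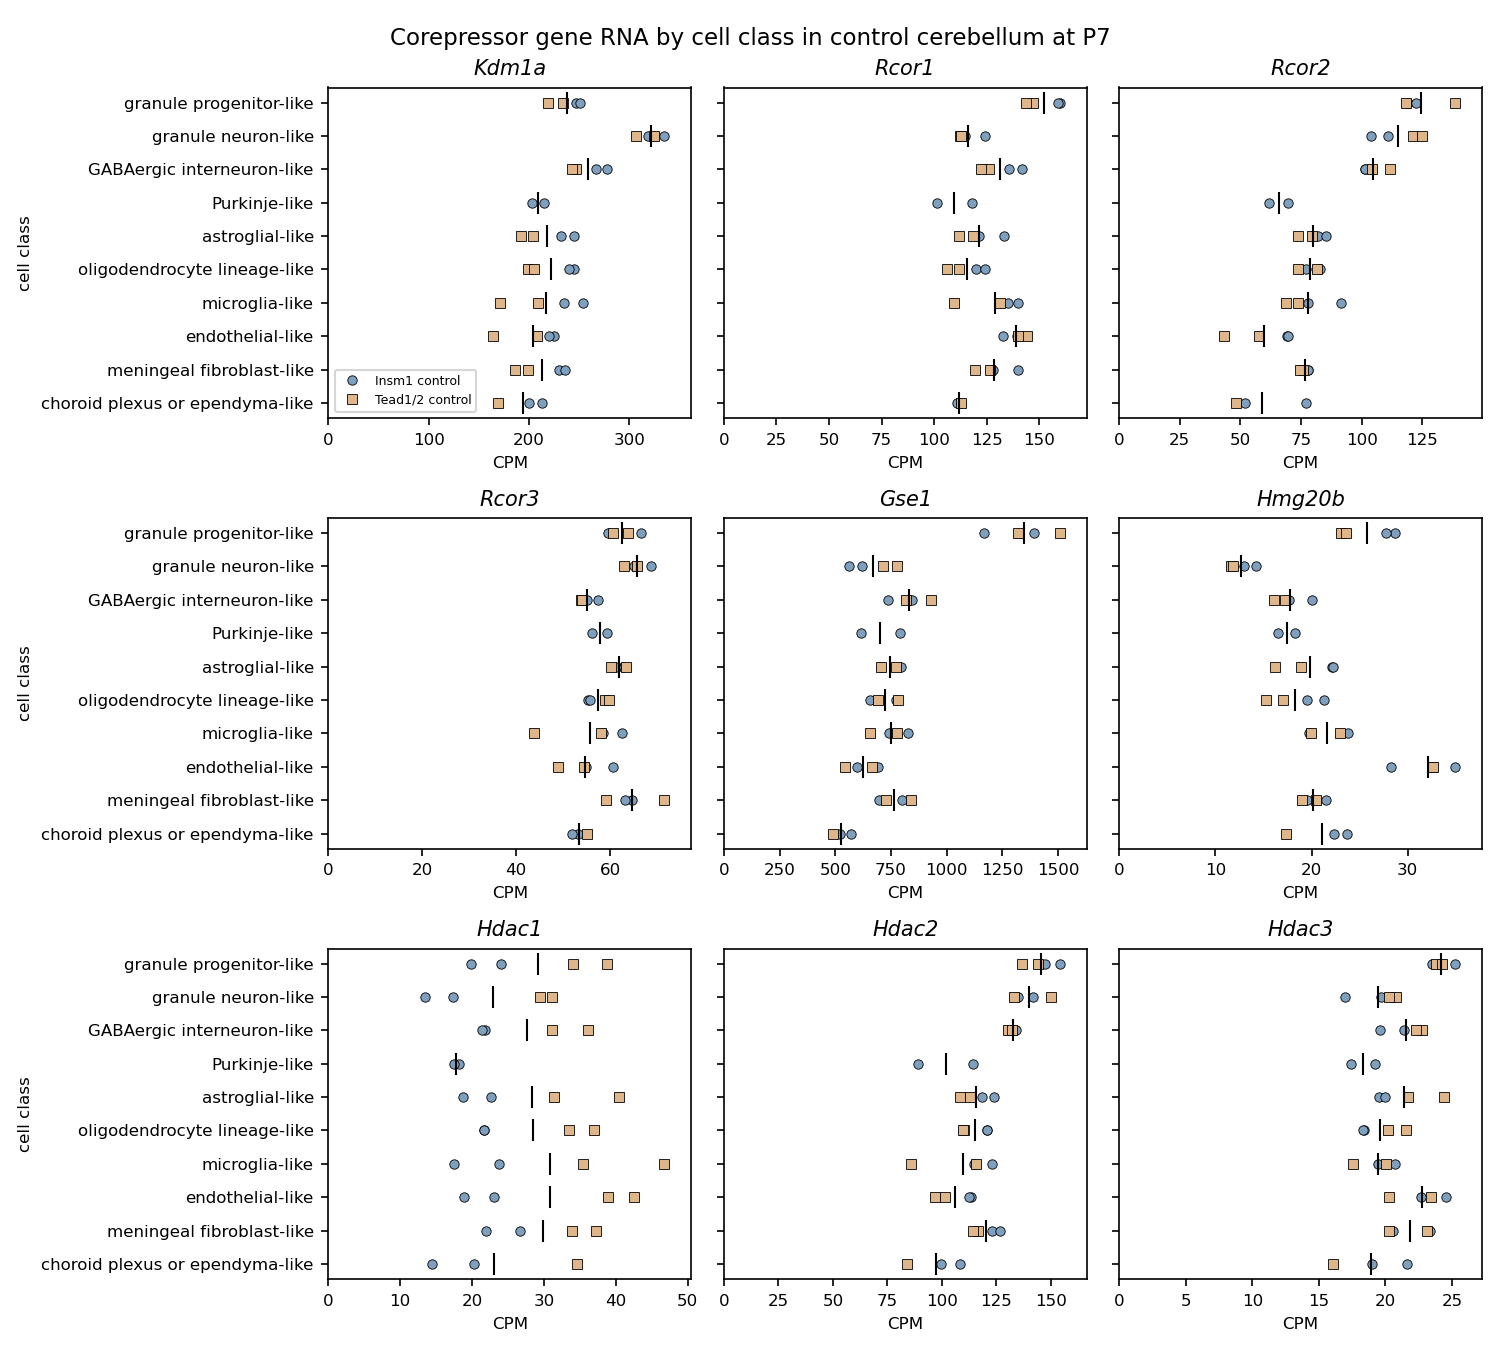
Plain CPM (horizontal axes, 1 panel a gene, each with its own scale) of the 9 genes in 10 cell classes (vertical axes) of the P7 controls. Circles mark Insm1 controls, squares Tead1/2 controls and a bar the mean. Kdm1a peaks in granule neurons, Gse1 in granule progenitors, and Rcor2 and Hdac2 are highest in both granule classes and the GABAergic interneurons.

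Across the 10 classes, each at its mean over controls, the genes closest to each member were found by Pearson's r of log2(CPM + 1) among 6988 genes with at least 20 CPM on average. The classes share libraries and free transcripts, so these r values are descriptions. For Kdm1a they were Mex3b (r = 0.995), Mgat5b (0.984) and Nhlh1 (0.981). Nhlh1, a transcription factor of early granule neurons, was itself on the marker list used to name the granule neuron class. For Rcor2 they were Tmem132a (0.984), Vopp1 (0.982) and Gprin1 (0.980), and Tmem132a was also closest to Hdac2 (0.982). For Gse1 they were Zc3h15 (0.970), Bbx (0.966) and Rab15 (0.962), for Rcor1 Rheb (0.976), Uimc1 (0.969) and Rnps1 (0.968), and for Hmg20b Map3k20 (0.975), Dennd4c (0.974) and Ptgfrn (0.970). Rcor3, the flattest profile, had the weakest matches, led by Cemip (0.909). Hdac3 was closest to Hnrnph2 (0.967) and Hdac1 to Xist (0.978), the transcript of the inactive X chromosome. The class means pool controls of both alleles, which differ in Hdac1, and not every class has all 4 libraries.

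The first comparison asked what deletion of Insm1, which encodes a factor that docks on KDM1A, did to these genes at P2. Rcor2 was lower in the mutants, and it was the only one of the 9 to pass the test. Rcor2 was at 59.4, 54.4, 60.6 and 64.9 normalised CPM in Insm1 controls 1 to 4 and at 41.6, 45.0, 47.1 and 45.8 in the mutants. The groups did not overlap, and the log2 change was -0.40 (SE 0.0703, edgeR adjusted p = 0.0325). Over all genes tested, 0.689% passed (135 of 19582) at an adjusted p under 0.05, and 1763 had an unadjusted p under 0.05. In whole tissue, fewer cells of a type and less RNA per cell cannot be told apart. The direction of Rcor2 held with every library left out in turn, -0.45 to -0.36, but the call did not: leaving out any one of Insm1 controls 1, 3 and 4 or of mutants 2, 3 and 4 gave adjusted p of 0.0726 to 0.107 by edgeR. By Xist against Ddx3y, 4 of 4 controls and 2 of 4 mutants were female. With sex in the model the Rcor2 change was -0.45 (SE 0.0876, edgeR adjusted p = 0.0941), and with the replicate number as a block it was -0.40 (SE 0.0719, edgeR adjusted p = 0.148), so neither kept the call.

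Gse1 had the larger difference of means at P2 and a wider spread. It was at 116, 82.1, 77.1 and 119.7 CPM in Insm1 controls 1 to 4 and at 33.6, 61.4, 63.1 and 67.2 in the mutants. Every mutant was below every control, with a log2 change of -0.80 (SE 0.218) that edgeR did not call (adjusted p = 0.218) and DESeq2 did. Mutant 1 was the lowest library for Gse1, and likewise for Rcor1, at 25.0 CPM against 33.02 to 36.3 in the other mutants and 35.4 to 47.3 in controls, and for Tead1, at 38.7 against 74.7 to 93.8. Rcor1 overlapped between the groups through mutant 3 (log2 change -0.31, SE 0.125, edgeR adjusted p = 0.503).

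Kdm1a itself, the catalytic subunit, was at 122, 126, 130.0 and 124 CPM in Insm1 controls and at 115, 113, 118 and 109 in the mutants. The groups do not overlap, and the log2 change was -0.13 (SE 0.0572, edgeR adjusted p = 0.533). Hdac1 was at 26.2 to 27.4 CPM in controls and 24.0 to 25.4 in mutants, also without overlap (log2 change -0.11, edgeR adjusted p = 0.613). All bulk Hdac1 expected counts are fractions in value, so its reads were shared with similar sequences and its level is uncertain. Groups that do not overlap were thus seen for 4 of the 9 genes, against 6.32% of all genes tested. Hdac2, at 143 to 165 CPM in controls and 141 to 175 in mutants, Hdac3, at 68.6 to 82.1 and 74.3 to 91.0, Rcor3, at 42.6 to 44.7 and 40.7 to 45.6, and Hmg20b, at 17.0 to 19.4 and 16.3 to 17.1, had log2 changes of -0.01, 0.06, 0.03 and -0.09. The median over the 9 was -0.11, with 7 below 0, beside 0.006 over all genes.

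Deletion of Tead1 and Tead2 was read the same way, and here edgeR called 0 of the 9 genes, with 1, Gse1, at an unadjusted p under 0.05 and 0 by DESeq2. Over all genes it called 0 (0%) of 20247, while 4052 had an unadjusted p under 0.05 and DESeq2 called 1026. Gse1 was at 49.4, 56.2 and 38.8 CPM in Tead1/2 controls 1 to 3 and at 28.3, 37.8, 34.9 and 51.2 in mutants 1 to 4. The high value belongs to the library labelled mutant 4, and the other mutants lie below all controls. With all libraries the log2 change was -0.38 (SE 0.167, edgeR adjusted p = 0.244). Without mutant 4 it was -0.55 (SE 0.122, edgeR adjusted p = 0.0461), in a fit that called 3.19% of genes (646 of 20234).

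Rcor2 was at 52.7, 58.4 and 53.7 CPM in Tead1/2 controls and at 45.6, 52.2, 44.8 and 56.8 in mutants. Again mutant 4 was the one within the control range. The log2 change was -0.17 (SE 0.0793, edgeR adjusted p = 0.253) with it and -0.24 (SE 0.0674, edgeR adjusted p = 0.0881) without it. Hdac2 was the only one of the 9 whose Tead1/2 groups did not overlap, at 159 to 165 CPM in controls and 168 to 187 in mutants, higher in the mutants, against 17.4% of all genes tested. Kdm1a (117 to 121 CPM in controls, 116 to 127 in mutants), Rcor1 (26.1 to 29.1 and 25.6 to 33.2), Rcor3 (42.7 to 49.6 and 41.6 to 45.0), Hmg20b (13.7 to 16.8 and 15.9 to 19.6), Hdac1 (22.6 to 27.8 and 23.7 to 28.6) and Hdac3 (83.5 to 85.7 and 84.7 to 90.5) all overlapped. The median log2 change over the 9 was 0.04, beside -0.01 over all genes. Without mutant 4 the groups of Rcor2, Gse1, Hdac2 and Hdac3 did not overlap, against 25.2% of all genes tested. The 7 members other than Gse1 and Rcor2 then had log2 changes of -0.12 (Rcor3) to 0.16 (Hmg20b), and edgeR called 0 of these 7, with 0 at an unadjusted p under 0.05.

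Whether the 2 deletions differed at P2 was tested directly, as the change with Insm1 deletion minus the change with Tead1/2 deletion. By edgeR 0 of the 9 genes and 0 (0%) of 20837 genes were called. At an unadjusted p under 0.05 there were 2 members, Rcor1 (-0.38) and Hmg20b (-0.24), and 1435 genes, and DESeq2 called 0 members and 14 genes. The difference for Rcor2 was -0.24 (SE 0.111, edgeR adjusted p = 0.724) and for Gse1 -0.44 (edgeR adjusted p = 0.862). Without Tead1/2 mutant 4 these were -0.17 and -0.26 (edgeR adjusted p = 0.812 and 0.938), 0 of 20859 genes were called, and Hdac1 (-0.22) joined Rcor1 (-0.40) and Hmg20b (-0.26) at an unadjusted p under 0.05. That edgeR called no difference for these genes does not show that the deletions act alike.

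**Figure D2:**
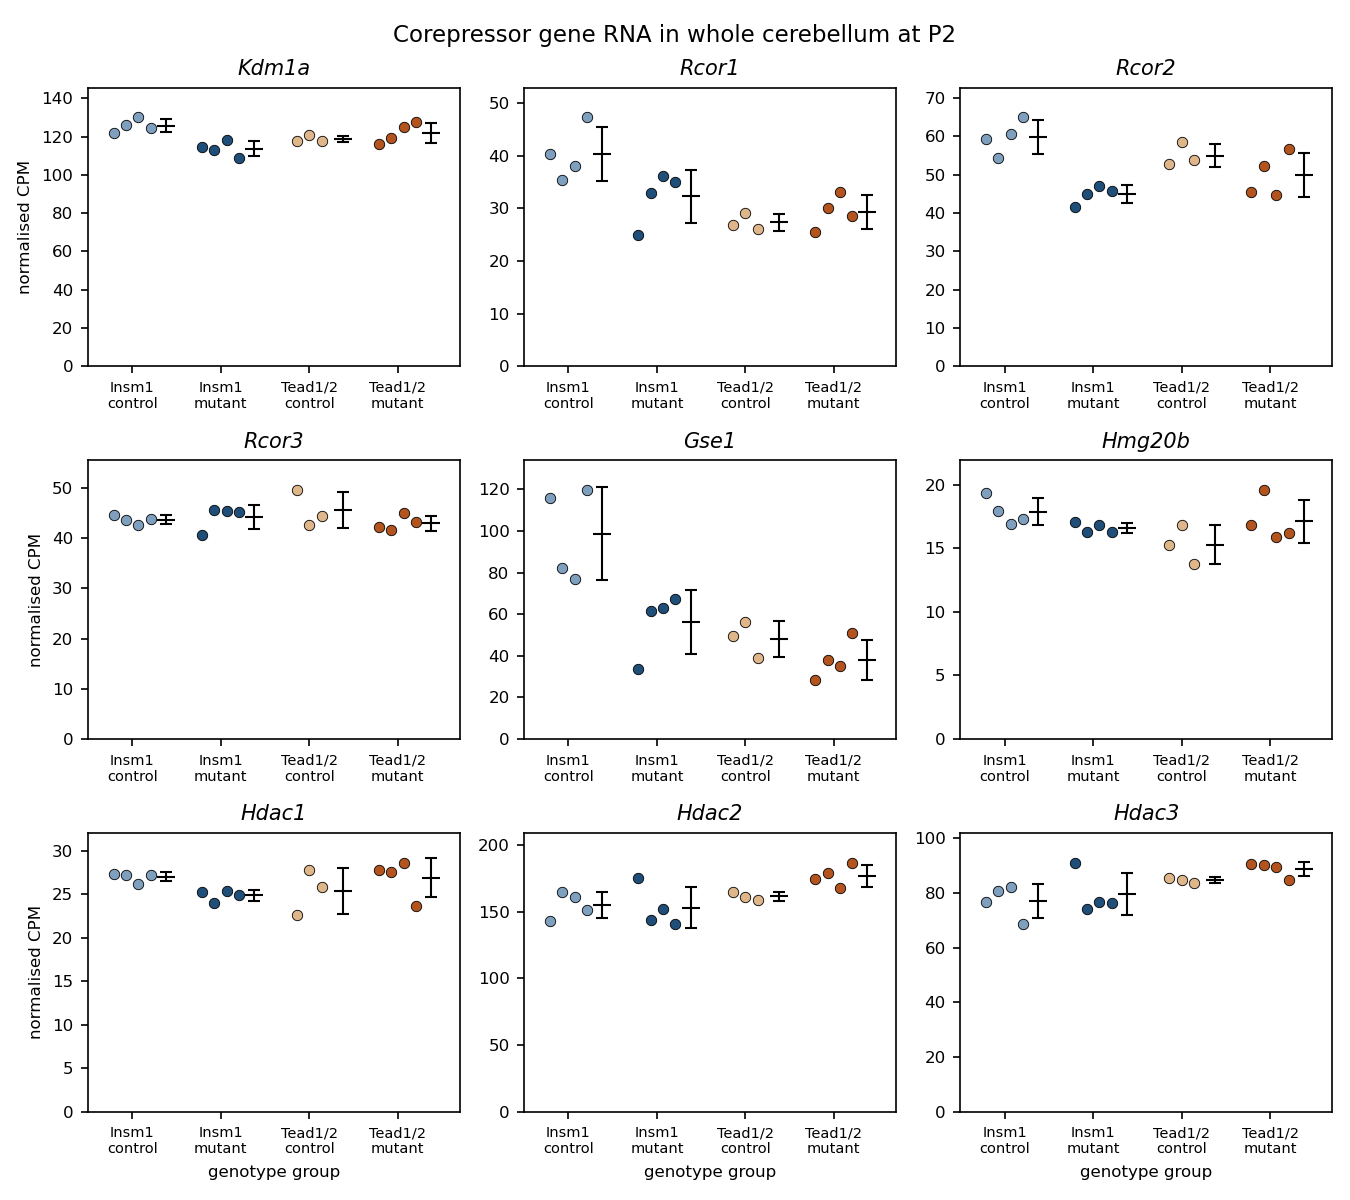
Normalised CPM (vertical axes, 1 panel a gene) of the 9 genes in the 15 bulk P2 libraries, each point 1 library, with the mean and SD of each group. Rcor2, Gse1 and Kdm1a of the Insm1 mutants lie below all Insm1 controls, and the high Gse1 and Rcor2 points of the Tead1/2 mutants are the library labelled mutant 4.

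At P7 the cell classes allowed the genes to be read in the granule lineage, where Cre is active. Counts were summed over granule progenitors and granule neurons within each library and normalised over the 10 libraries. Rcor2 was lower with either deletion by the widest margin of the 9 genes. It was at 116 and 116 normalised CPM in Insm1 controls 1 and 2 and at 73.4, 75.9 and 68.7 in Insm1 mutants 1 to 3 (log2 change -0.66, SE 0.0694, edgeR adjusted p = 1.97e-05). In the Tead1/2 libraries Rcor2 was at 121 and 136 CPM in controls and at 71.9, 71.3 and 78.2 in mutants (-0.76, SE 0.0689, edgeR adjusted p = 4.97e-06). All 6 mutants lay below all 4 controls, but with so few libraries the groups do not overlap for 50.4% (Insm1) and 50.2% (Tead1/2) of all genes tested in this lineage. Both calls held in all 13 alternative settings tried, each library left out in turn included.

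Gse1 fell with Tead1/2 deletion and did not pass the test with Insm1 deletion. It was at 1160.0 and 1279 CPM in Tead1/2 controls and at 891, 603 and 767 in the mutants, without overlap (log2 change -0.65, SE 0.132, edgeR adjusted p = 0.00296, called in all 13 alternatives). The Insm1 libraries overlapped, at 1076 and 938 CPM in controls and at 977, 834 and 881 in mutants (-0.16, SE 0.133, edgeR adjusted p = 0.462). The difference between the deletions was 0.49 (SE 0.189, edgeR adjusted p = 0.366) and was not called, so the data do not separate the 2 alleles for Gse1.

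Kdm1a was at 285 and 277 CPM in Insm1 controls and at 258, 227 and 231 in mutants (log2 change -0.23, SE 0.0657, edgeR adjusted p = 0.0273). The groups do not overlap, read against those shares, and the call was lost, with edgeR adjusted p of 0.0775 to 0.111, when Insm1 control 1, control 2, mutant 2 or mutant 3 was left out. With Tead1/2 deletion Kdm1a was at 264 and 253 CPM against 230.4, 222 and 213, also without overlap (-0.18, SE 0.0657, edgeR adjusted p = 0.0682). Hdac1 went the other way with Insm1 deletion, at 21.3 and 17.5 CPM in controls and 22.8, 28.6 and 24.1 in mutants (0.38, SE 0.112, edgeR adjusted p = 0.0310). That call did not hold without Insm1 control 2 (0.24), mutant 2 (0.27) or mutant 3 (0.41), with edgeR adjusted p of 0.0506 to 0.314. Hdac1 in the Tead1/2 libraries was at 33.2 and 36.8 CPM against 35.7, 36.5 and 35.0, which overlap, and sat above all Insm1 libraries.

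The other 5 genes did not pass in the lineage as a whole with either deletion. Hdac2, the partner deacetylase, was at 143 and 149.6 CPM without and 127 to 136 with Insm1 deletion, and at 148 and 138 without and 114 to 131 with Tead1/2 deletion, a log2 change of -0.16 both times. Hmg20b was at 22.2 and 22.6 CPM against 16.8 to 20.3 (-0.24) and at 20.1 and 19.9 against 16.7 to 17.2 (-0.19), lower in all mutants. Rcor1 was at 142 to 145 CPM against 123 to 136 in the Insm1 groups (-0.12) and at 135 to 139 against 129 to 135 in the Tead1/2 groups (-0.01). For Rcor3 the log2 changes were 0.13 and 0.17, and for Hdac3 -0.04 and -0.04. In these fits 20.9% of 17133 genes were called for Insm1 and 23.7% for Tead1/2, against 3 and 2 of the 9 members, so calls were common among all genes and nothing particular to the members is read from their count. The difference between the deletions was called for 1.02% of genes (175) and for 0 members by edgeR and by DESeq2, with 1 member, Gse1, at an unadjusted p under 0.05.

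**Figure D3:**
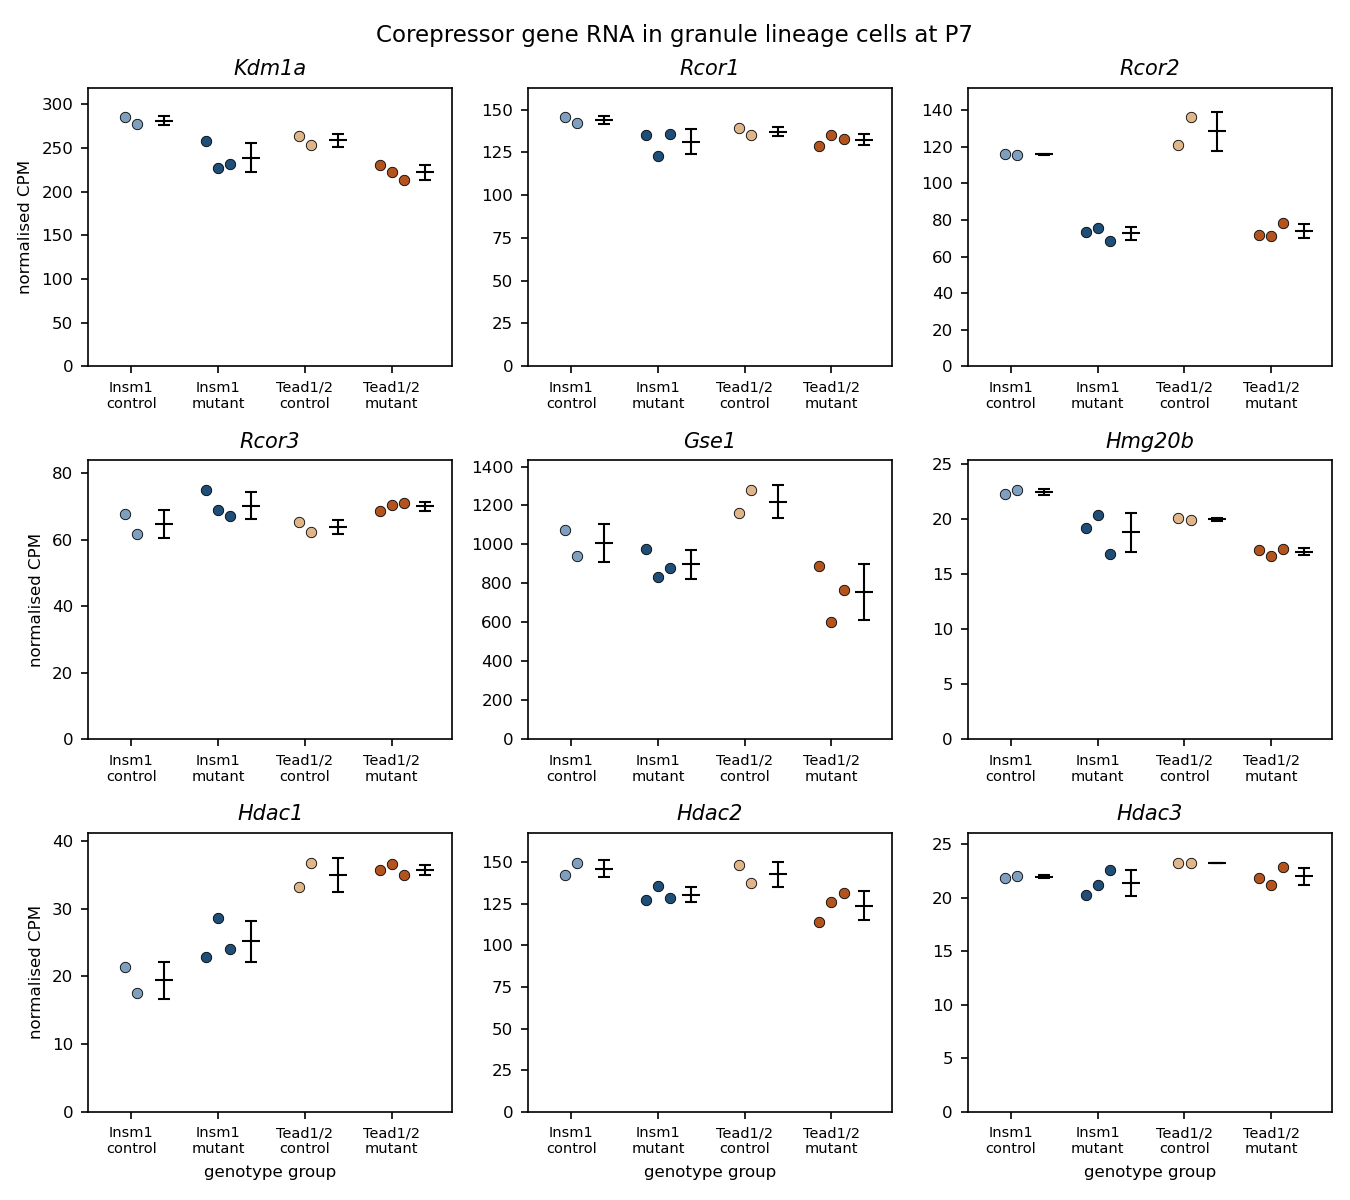
Normalised CPM (vertical axes, 1 panel a gene) of the 9 genes in granule lineage cells of the 10 P7 libraries, each point 1 library, with the mean and SD of each group. Rcor2 of all 6 mutants lies between 68.7 and 78.2, below all 4 controls at 116 to 136, and Gse1 is separated only between the Tead1/2 groups.

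Both stages of the lineage were then read alone. In granule progenitors Rcor2 was at 120.2 and 124 CPM in Insm1 controls and at 74.0, 83.8 and 75.4 in mutants (log2 change -0.63, SE 0.0797, edgeR adjusted p = 7.06e-05), the only member called where 19.4% of all genes were. With Tead1/2 deletion Rcor2 was at 124 and 144 CPM against 75.7, 77.9 and 83.0 (-0.72, SE 0.0783, edgeR adjusted p = 1.48e-05). Gse1 was also called there, at 1385 and 1562 CPM in Tead1/2 controls against 1136, 774 and 973 (-0.57, SE 0.143, edgeR adjusted p = 0.0100), in a fit that called 22.8% of genes. Without Tead1/2 control 2 that Gse1 call was lost (-0.48).

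Granule neurons were fitted in the same way. With Insm1 deletion, where 27.4% of all genes were called, 4 members were: Rcor2 (log2 change -0.73), Kdm1a (-0.42), Hdac2 (-0.34) and, upward, Hdac1 (0.55). Kdm1a in neurons was at 346 and 320.0 CPM in Insm1 controls and at 267, 234 and 244 in mutants (SE 0.0807, edgeR adjusted p = 0.00135). Hdac2 was at 139 and 142 CPM against 110.5, 117 and 105 (SE 0.0711, edgeR adjusted p = 0.00249). Neither group pair overlaps, in a comparison where 54.6% of all genes do not. Hdac1 rose from 18.0 and 13.6 CPM to 20.1, 25.4 and 24.9 (SE 0.131, edgeR adjusted p = 0.00575), a call lost without Insm1 control 2 (0.39).

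With Tead1/2 deletion the neurons had 5 of the 9 genes called, against 23.6% of all genes. Rcor2 was at 118 and 123 CPM in controls and at 66.2, 62.8 and 72.6 in mutants (log2 change -0.83, SE 0.0807, edgeR adjusted p = 3.84e-06). Gse1 was at 699 and 762 CPM against 491, 347 and 437 (-0.76, SE 0.125, edgeR adjusted p = 0.000438). For 49.2% of all genes tested in these cells the Tead1/2 groups do not overlap. Kdm1a was at 318 and 301 CPM against 275, 245 and 234 (-0.28, edgeR adjusted p = 0.0214), and that call was lost without Tead1/2 control 1 (-0.26), control 2 (-0.33), mutant 2 (-0.27) or mutant 3 (-0.23). Hdac2 was at 147 and 130.5 CPM against 108, 115 and 115 (-0.28, edgeR adjusted p = 0.0101), lost without Tead1/2 control 1 (-0.22). Rcor3 rose slightly, from 64.3 and 61.7 CPM to 71.4, 75.1 and 76.6 (0.26, edgeR adjusted p = 0.0388), and this call did not hold without Tead1/2 control 1 (0.26), control 2 (0.22), mutant 2 (0.25) or mutant 3 (0.24). Whether the change differs between progenitors and neurons was not tested.

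The granule class also changed its makeup. Unnamed cells of the controls were left out of this class. Their granule marker sums were 11222 to 11594 CPM (Insm1) and 10983 to 11608 (Tead1/2). Granule clusters 16, 17, 21 and 24 came almost wholly from mutants (99.4%, 96.6%, 100% and 99.8% of their cells). In those clusters Rcor2 was at 63.2, 70.5 and 67.1 plain CPM in Insm1 mutants 1 to 3 and at 60.8, 67.8 and 69.5 in Tead1/2 mutants. In the granule clusters that the same mutants shared with controls Rcor2 was at 94.4, 104 and 85.6 CPM and at 93.8, 99.4 and 112. Both lie below the controls, at 115.9 and 115.8 (Insm1) and 119.5 and 135.3 (Tead1/2), the clusters made by mutants more so. Gse1 was at 541, 494 and 556 CPM in the mutant clusters of Tead1/2 mutants and at 1506, 1235 and 1445 in their shared clusters, beside 1143 and 1267 in the controls. In Insm1 mutants Gse1 was at 810, 770 and 858 CPM in the mutant clusters and at 1347, 1169 and 1126 in the shared ones, beside 1073 and 938 in the controls. With both deletions the mutant clusters lay below the controls of the shared clusters for Gse1, and the shared clusters of the mutants did not. Kdm1a was at 215, 219 and 212 CPM in the mutant clusters of Tead1/2 mutants and 269, 270 and 244 in the shared ones, beside 261 and 251 in controls. For Insm1 mutants Kdm1a was at 235, 220 and 228 CPM in the mutant clusters. In the shared ones it was at 293, 247 and 267, beside 284 and 277 in the controls, which overlap. These are values without a test, since the clusters were drawn from the same cells.

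Summed over all kept cells, which mixes changes within cells with changes in cell numbers, 5 of the 9 genes were lower with Insm1 deletion, where 33.4% of all genes were called. Rcor2 was at 103 and 93.3 normalised CPM in controls and at 51.5, 54.6 and 46.1 in mutants (log2 change -0.94, SE 0.0812, edgeR adjusted p = 1.62e-05). Kdm1a (-0.38), Hmg20b (-0.30), Hdac2 (-0.29) and Gse1 (-0.36) were the others. Gse1 stood at an edgeR adjusted p of 0.0496, and it was lost without Insm1 control 1 (-0.21), mutant 2 (-0.32) or mutant 3 (-0.32). With Tead1/2 deletion 6 were called against 48.3% of all genes. Rcor2 was at 101 and 113 CPM in controls and at 41.3, 40.7 and 44.5 in mutants (-1.36, SE 0.0813, edgeR adjusted p = 6.43e-07). Gse1 (-0.82), Kdm1a (-0.52), Hdac2 (-0.46) and Hmg20b (-0.18) were also lower, and Rcor1 rose (0.27, SE 0.0762, edgeR adjusted p = 0.0130). The Hmg20b call was lost without Tead1/2 control 1 (-0.16), control 2 (-0.20), mutant 1 (-0.16) or mutant 2 (-0.17), and the Rcor1 call without control 2 (0.25).

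Rcor2 was also called lower in the other 6 classes tested, where no Atoh1Cre activity is known, with 1 exception in 12 comparisons. In GABAergic interneurons, where 19.4% (Insm1) and 21.3% (Tead1/2) of genes were called, Rcor2 was at 105 and 105 CPM against 72.4, 77.7 and 70.0 with Insm1 deletion (log2 change -0.47, edgeR adjusted p = 0.000268) and at 106 and 113 against 69.5, 69.2 and 75.7 with Tead1/2 deletion (-0.59, edgeR adjusted p = 3.52e-05). In astroglial cells, with 26.4% and 28.1% of genes called, Rcor2 changed by -0.95 and -1.22. In the oligodendrocyte lineage (16.3% and 27.1%) Rcor2 changed by -0.96 and -1.32, in meningeal fibroblasts (16.2% and 21%) by -0.85 and -1.33, and in microglia (6.26% and 12.4%) by -0.80 and -1.17. In endothelial cells (9.67% and 7.73%) it was -0.85 for Insm1, which was called, and -0.83 for Tead1/2, which edgeR did not call (adjusted p = 0.0648) and DESeq2 did, so there edgeR called 0 members, with 4 at an unadjusted p under 0.05. Calls of Rcor2 were lost without single libraries in Insm1 microglia (any of the 5), Insm1 endothelial cells (control 1, control 2, mutant 1 or mutant 3, -0.86 to -0.72) and Tead1/2 microglia (control 1, -1.06).

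For Gse1 the log2 change with Tead1/2 deletion was -0.76 in GABAergic interneurons, -1.13 in astroglial cells, -1.13 in the oligodendrocyte lineage, -0.99 in microglia and -0.65 in meningeal fibroblasts, all called. With Insm1 deletion it was called in GABAergic interneurons (-0.31, lost without Insm1 control 1, control 2, mutant 2 or mutant 3), astroglial cells (-0.51) and the oligodendrocyte lineage (-0.53, lost without control 1). Microglia (-0.25) and meningeal fibroblasts (-0.27) did not pass, nor did endothelial cells with either deletion (-0.32 for Insm1 and -0.40 for Tead1/2). Whether the deletions differ in these classes was not tested. Rcor1 was higher in GABAergic interneurons of Tead1/2 mutants, at 147, 159 and 142 CPM against 129 and 124 (0.27, SE 0.0744, edgeR adjusted p = 0.0213), a call lost without Tead1/2 control 1, control 2 or mutant 2.

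Kdm1a and Hdac2 were called lower in several of these classes too. Kdm1a changed by -0.40 (Insm1) and -0.47 (Tead1/2) in astroglial cells, -0.31 and -0.38 in meningeal fibroblasts and -0.35 and -0.33 in the oligodendrocyte lineage, all called, and by -0.57 in Tead1/2 microglia. Those calls were lost in Insm1 fibroblasts without control 2, in the oligodendrocyte lineage of either allele without control 1 or control 2, and in Tead1/2 microglia without control 1, control 2, mutant 1 or mutant 3. Hdac2 changed by -0.32 and -0.43 in astroglial cells, -0.29 and -0.32 in fibroblasts, -0.30 and -0.38 in the oligodendrocyte lineage and -0.28 in GABAergic interneurons with Tead1/2 deletion. Its calls were lost in Insm1 astroglial cells without control 2, in Insm1 fibroblasts without control 1, control 2, mutant 1 or mutant 3, in Tead1/2 fibroblasts without control 1, in the Insm1 oligodendrocyte lineage without control 1, control 2 or mutant 1, and in Tead1/2 interneurons without control 1 or control 2. Hmg20b was called in the Insm1 oligodendrocyte lineage (-0.52), lost without control 1, control 2, mutant 1 or mutant 2.

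Over the 20 comparisons of a deletion at P7, across 10 populations that share cells and libraries, Rcor2 was called lower in 19, Gse1 in 13, Kdm1a in 12, Hdac2 in 11 and Hmg20b in 3, where 1.71% to 22.6% of all genes were called lower in a comparison. Leaving out 1 library ended 3 of the 19 Rcor2 calls, 4 of the 13 for Gse1, 6 of the 12 for Kdm1a, 6 of the 11 for Hdac2 and 2 of the 3 for Hmg20b. Calls upward were made for Rcor1 in 2, Hdac1 in 2 and Rcor3 in 1, each ended by leaving out 1 library, where 4.55% to 25.8% of all genes were called higher. Hdac3, the NCoR deacetylase, was called in 0 by edgeR. In 1 of them, Tead1/2 deletion over all kept cells, Hdac3 had an unadjusted p under 0.05, and DESeq2 called it there.

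**Figure D4:**
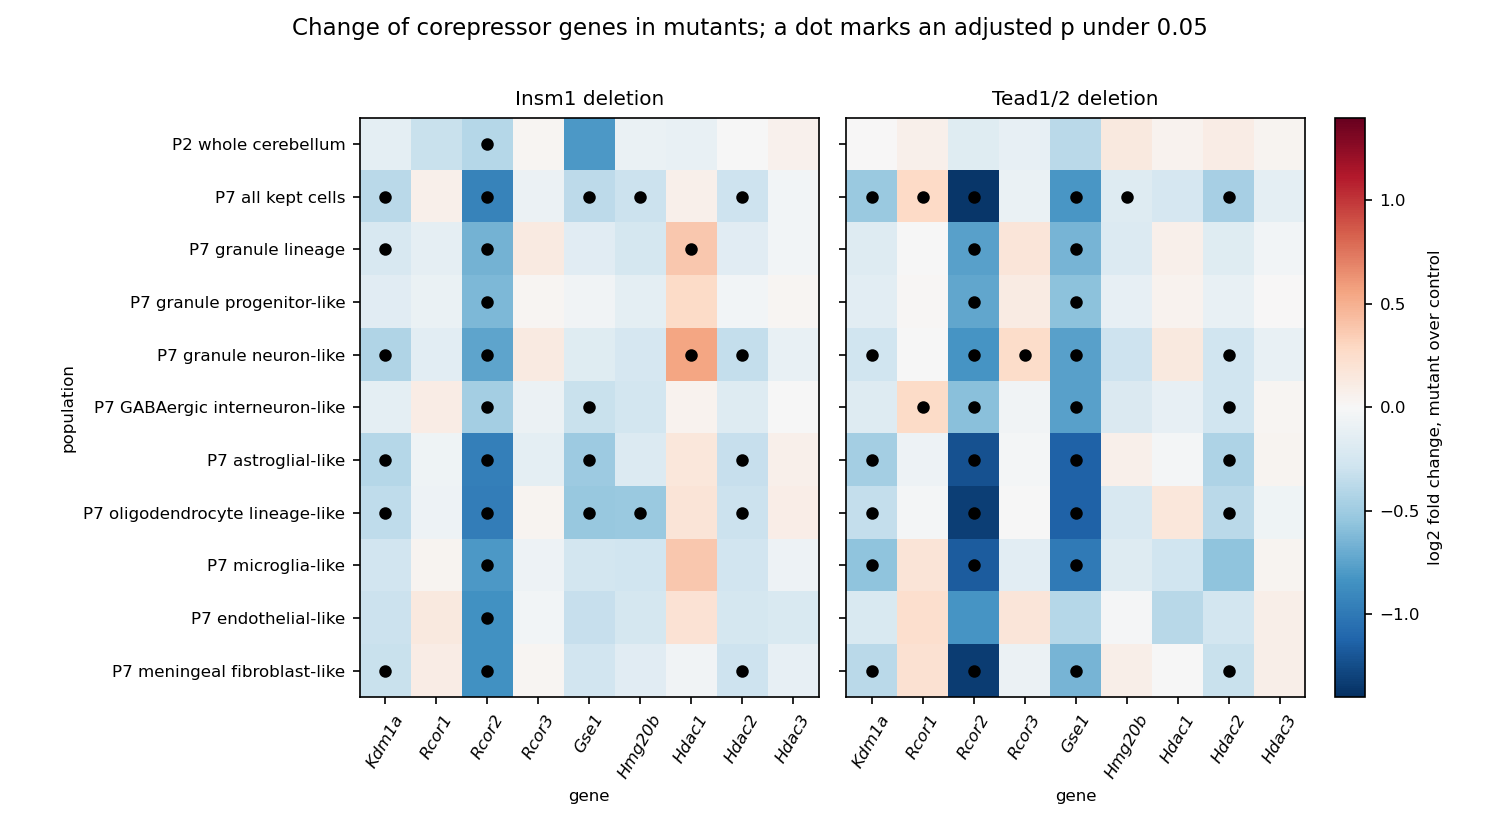
Log2 change, mutant over control, of the 9 genes (columns) in P2 bulk tissue and the P7 populations (rows) for each deletion. Colour runs from blue (lower) to red (higher), with a dot where the edgeR adjusted p is under 0.05. The Rcor2 column is blue in all rows and carries 19 dots over the 20 P7 comparisons, while Hdac3 carries 0.

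The summed level of a list of granule markers was also lower in the mutants in classes that are not granule cells. The list includes cell cycle and general neuronal genes, and the source of its transcripts in these classes was not tested. A list of 27 granule progenitor and granule neuron markers summed to 9334 to 9537 plain CPM in the GABAergic interneurons of Insm1 controls and to 6584 to 6974 in the mutants, and to 8460 to 9238 against 5777 to 5991 for Tead1/2. In astroglial cells the sums were 8699 to 8778 against 5510 to 5981 (Insm1) and 7188 to 8041 against 3684 to 4313 (Tead1/2), and in microglia 8602 to 8907 against 5780 to 6352 and 6534 to 7346 against 2250 to 3870. No control value of these classes overlaps the mutant values of its allele. In the granule lineage itself the sum was 11239 to 11476 CPM against 8646 to 9625 (Insm1) and 10859 to 11435 against 7977 to 8846 (Tead1/2). At most 3 of the 27 genes were at 0 in any group of any class.

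Barcodes with under 500 UMIs, too few to count as cells here and open to free RNA, gave Rcor2 at 114.2 to 117.9 CPM in Insm1 controls against 62.9 to 76.6 in mutants and at 108.9 to 117.1 in Tead1/2 controls against 57.8 to 61.4. Their granule list summed to 9472 to 9564 CPM against 5941 to 6776 and to 8338 to 8393 against 5026 to 5671. Per 1000 UMIs of the granule list, Rcor2 in GABAergic interneurons was at 10.6 to 10.9 in Insm1 controls and 10.2 to 11.1 in mutants, and at 12.1 to 12.3 and 12.2 to 13.1 for Tead1/2. Those ranges overlap. The list sum was itself lower in the mutants, here and in the classes that follow. The ratio alone therefore cannot tell, in any of them, whether Rcor2 changed. In the granule lineage the same ratio was at 10.1 to 10.3 in Insm1 controls against 7.41 to 8.05, and at 10.97 to 11.7 in Tead1/2 controls against 8.68 to 9.16. The ratio was thus lower there in every mutant, as it was in astroglial cells. In the latter it was at 9.45 to 9.71 against 7.61 to 7.84 and 9.87 to 10.2 against 7.54 to 8.95. The ratio was also lower in every mutant in the oligodendrocyte lineage, at 9.19 to 10.04 against 6.76 to 8.39 and 10.2 to 10.9 against 7.12 to 8.69, and in meningeal fibroblasts, while in microglia and endothelial cells the ranges overlapped. In the barcodes under 500 UMIs it was lower too, at 12.1 to 12.3 against 10.6 to 11.6 for Insm1 and at 12.97 to 14.04 against 10.7 to 11.6 for Tead1/2.

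**Figure D5:**
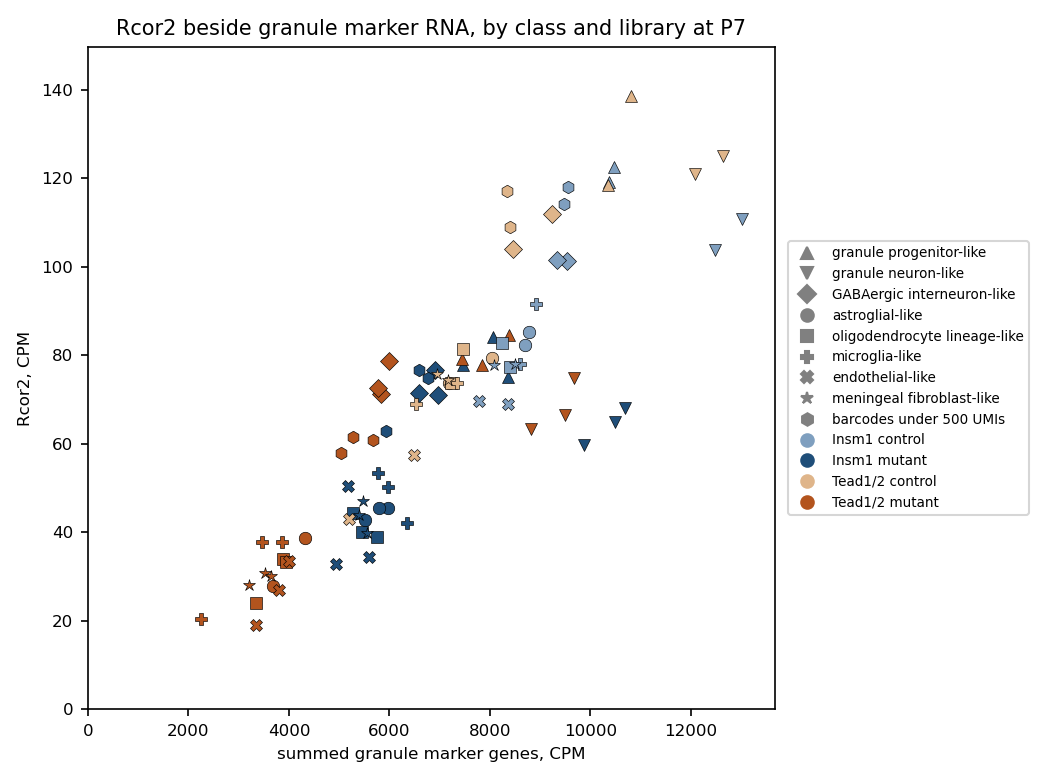
Rcor2 (vertical axis, plain CPM) against the summed level of 27 granule markers (horizontal axis, plain CPM) by cell class and library at P7, with controls and mutants marked by allele. Mutant points of every class lie at a lower granule sum and a lower Rcor2 than the control points of the same class and allele.

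A list of 16 skeletal muscle genes rose in the same libraries, at 60.3 to 80.2 CPM in GABAergic interneurons of Insm1 controls against 1282 to 1572 in mutants and at 56.6 to 59.7 against 2374 to 5085 for Tead1/2. In the granule lineage the muscle sums were 73.0 to 73.9 against 182 to 227 CPM and 71.4 to 95.0 against 364 to 872. In the barcodes under 500 UMIs they were 997 to 1463 against 7058 to 8112 CPM and 2429 to 2674 against 12798 to 20464. Those control values are above the muscle sums of every control class, so these barcodes are not read as free RNA of 1 genotype alone. The source of their muscle RNA was not tested. GABAergic cluster 1 came 97.4% from mutants and cluster 2 16.7%, so the class is also held by different clusters in the 2 genotypes. The part of free RNA, of muscle transcripts and of cluster makeup in the Rcor2 and Gse1 differences outside the granule lineage was not tested.

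Cells of the clusters named muscle-like numbered 6769 in the mutants and 7 in the controls. Unnamed cells of the mutants were not counted here, though their muscle sums were 16613 to 22691 CPM (Insm1) and 29804 to 33004 (Tead1/2). With so few in the controls, levels of muscle-like cells are set beside granule lineage cells of the same 6 mutants, with no test. Rcor2 was lower in them in 6 of 6 mutants, by a median log2 difference of -0.95 and a range of -1.55 to -0.70. Against meningeal fibroblasts of the same mutants the Rcor2 difference was -0.16 to 0.13, with both signs. Its level was 42.7 ± 2.7 plain CPM in the Insm1 mutants (SD, n = 3) and 29.5 ± 4.3 in the Tead1/2 mutants (n = 3). Rcor1, the other main scaffold, was higher in them in 6 of 6 mutants, by 0.41 (0.37 to 0.51), at 176 ± 6.0 and 182 ± 13.9 CPM. Kdm1a (-0.41), Hdac1 (-0.46), Hdac2 (-0.31), Rcor3 (-0.27), Gse1 (-0.25) and Hdac3 (-0.07) were lower in 6 of 6 mutants and Hmg20b (-0.06) in 5 of 6. For some the sign depends on the granule stage: against granule neurons alone, muscle-like cells were higher for Gse1 (0.39 to 0.74) and Hmg20b (0.56 to 0.89) in 6 of 6 mutants and for Hdac3 (-0.06 to 0.37) in 5 of 6. For Hdac2 the difference from granule neurons was 0.03 to 0.08 in the Insm1 mutants and -0.32 to -0.24 in the Tead1/2 mutants. Rcor1 and Rcor2 thus differed from the granule lineage in opposite directions in every mutant library.

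Genes that work with the complex were counted from lists written from their known roles. At P2 the lists of CoREST partners (8 genes), NuRD (12), SIN3 (9), NCoR (5), other deacetylases (8) and the Kdm5 family of demethylases (3) had 0 genes called by edgeR with either deletion, and the recruiting factors (7 tested) had 1, Insm1 itself. At an unadjusted p under 0.05 these lists together had 16 of 52 genes for Insm1, 11 for Tead1/2 and 6 for the difference between the deletions, beside 9.003%, 20.01% and 6.89% of all genes tested. DESeq2 was not run on these lists. Of 8 muscle genes 7 rose with Insm1 deletion, among them Ttn (log2 change 2.54), Myh3 (4.22), Acta1 (2.15) and Mylpf (4.32). With Tead1/2 deletion edgeR called 0 of the 8, with all 8 at an unadjusted p under 0.05 and a median of 3.78. Without Tead1/2 mutant 4, a count of the lists added after seeing the data, edgeR called all 8 higher (median 4.15), and of the other lists Snai2 (1.79), Insm1 (0.58) and Rest (0.32) higher and Chd5 (-0.36) lower, in the fit that called 3.19% of genes.

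In the granule lineage at P7, where 20.9% (Insm1) and 23.7% (Tead1/2) of all genes were called, the recruiting factors were counted first. With Insm1 deletion 3 of 7 rose and 3 fell, the deleted gene among them: Rest, which brings the complex to neuronal genes, rose by 2.36 on the log2 scale (SE 0.162) and Snai2, a Snail family repressor, by 2.68, while Insm1 (-2.53) and Scrt2 (-1.09), a neuronal Snail relative, fell. With Tead1/2 deletion 3 rose and 1 fell, with Rest at 2.15, Snai2 at 3.04, Snai1 at 1.65 and Scrt2 at -1.14. Of the muscle genes 5 and 8 of 8 rose in the same cells, led by Myog (3.92), Myod1 (2.85) and Actc1 (1.74) for Insm1 and by Myod1 (4.98), Ttn (2.82) and Actc1 (2.13) for Tead1/2. Whether Rest and Snai2 come from granule cells or from muscle transcripts in the same barcodes was not tested.

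The other repressor complexes were counted in the same lineage, against the same shares of all genes. Of NuRD, the chromatin remodelling and deacetylase complex, Chd5 rose with Insm1 deletion (1.10), and Chd3 (-0.49), Rbbp4 (-0.34) and Rbbp7 (-0.24) fell with Tead1/2 deletion. Of SIN3 0 were called for Insm1 (2 at an unadjusted p under 0.05) and Ing1 fell for Tead1/2 (-0.37). Of the NCoR complexes, those of HDAC3, Tbl1xr1 rose with Insm1 deletion (0.42) and with Tead1/2 deletion (0.24). Of the other deacetylases Hdac11 rose with both (1.99 and 1.97), as did Hdac4 (0.34 and 0.35), and Hdac9 fell with both (-0.57 and -0.46), with Hdac5 lower for Tead1/2 (-0.35). The Kdm5 family had 0 of 3 called, and 0 at an unadjusted p under 0.05, with either deletion.

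Over all kept cells 33.4% of all genes were called with Insm1 deletion and 48.3% with Tead1/2 deletion. With Insm1 deletion 4 of 8 CoREST partners fell, Ctbp2 (-0.32), Sfmbt1 (-0.26), Phf21a (-0.18) and Zmym2 (-0.18), and with Tead1/2 deletion 5 did, led by Ctbp2 (-0.61) and Sfmbt1 (-0.45). NuRD had 1 gene higher, Chd5 (0.92), and 4 lower, among them Rbbp4 (-0.28), Gatad2b (-0.23) and Chd4 (-0.20), with Insm1 deletion and 7 lower with Tead1/2 deletion, led by Rbbp4 (-0.51). SIN3 had 3 and 6 lower, with Ing1 at -0.40 and -0.60. Of the 8 other deacetylases Hdac11 was 3.33 and 3.62 higher on the log2 scale and Hdac4 0.28 and 0.25 higher, and with Tead1/2 deletion 3 were lower, among them Hdac7 (-0.35) and Hdac6 (-0.34). The 5 genes of the NCoR complexes had 2 higher and 2 lower, then 1 higher and 3 lower, with Tbl1xr1 at 0.23 and 0.16, Gps2 at -0.40 and -0.42 and Tbl1x at -0.26 and -0.40. The recruiting factors had 4 higher and 3 lower, then 4 higher and 2 lower, of 8 tested. The Kdm5 family had 0 of 3 called for Insm1, with 0 at an unadjusted p under 0.05, and 2 lower for Tead1/2, Kdm5b (-0.35) and Kdm5a (-0.19). All 8 muscle genes rose with both deletions.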

How the data were processed

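The bulk values deposited by the authors are unscaled expected counts of genes from RSEM, and the submitters' processing notes name STAR 2.7.9a, RSEM 1.3.3 and GRCm38.p6, without giving the step each served. Samples were matched by the column names in the labels, and 0 columns belonged to other samples. Of 55665 table rows, 92 spike-in rows were left out, and the expected counts were rounded. At P7 the authors deposited UMI counts of each barcode and gene, unfiltered and with no cell types; each library's genotype comes from its metadata name.

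Cells had at least 1000 UMIs and 500 genes and at most 15% mitochondrial UMIs. Scrublet's automatic threshold marked 0% to 55.3% of a library and had not worked, so the top 4% of doublet scores in each library was removed in its place, a setting switched after seeing this. Cells were clustered with scanpy 1.11.5 (2000 variable genes without the 9 members, 30 components, resolution 1). A cluster took the class with the most markers passed, if at least 3 did. It stayed unnamed on a tie, with more top genes of another class, or if shallow with no top gene of its class. Of the 35 clusters, 4 with 5753 cells were left unnamed. They included cluster 11 (2938 cells, 1.46% from mutants) and cluster 33 (2498 cells, 99.96% from mutants). A class and library needed 30 cells. Counts were summed per class and library.

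Tests used edgeR 4.0.16 quasi-likelihood fits with TMM and filterByExpr in R 4.3.3, with Benjamini-Hochberg adjustment over all genes and a threshold of 0.05. The P2 fits held the libraries of 1 allele (all 15 for the difference) and the P7 fits all 10. Normalised CPM uses TMM library sizes. Alternatives were DESeq2 1.42.0, no filter on low counts, a replicate block, a sex term, other cell filters, doublet settings and resolutions, and each library left out. The members, lists and tests were chosen with earlier results of these data known. The 9 members are always named, and of each list at most the 4 called genes with the smallest adjusted p in a comparison; results for 2 genes of these lists are not reported here. Expression of Xist over Ddx3y gave all 4 Insm1 controls but 2 of 4 Insm1 mutants as female at P2, and 1 of 3 and 1 of 4 for Tead1/2. Each library is a separate animal.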

Additional observations from a re-analysis of the deposited data

Results flagged for a closer look

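In the P2 libraries 4 of 27 groups of 4 held a value set apart from the other 3 by more than Dixon's 95% limit for the gap over the range, where chance alone gives about 1 group in 20. They were Hdac1 in Insm1 control 3 (26.2 normalised CPM), Hdac3 in Insm1 mutant 1 (91.0), Hdac3 in the library labelled Tead1/2 mutant 4 (84.7) and Rcor3 in Insm1 mutant 1 (40.7). None of the 3 genes was called at P2.

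In the P7 granule lineage the change differed between the deletions, by edgeR's test of the difference itself, for Insm1 itself, deleted in 1 of the alleles. It was -2.63 on the log2 scale (SE 0.538, edgeR adjusted p = 0.0413).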

How the results depend on the processing

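A member's change turned its sign in at least 1 setting in 45 of 216 pairs of gene and comparison, 0 of them called as reported. Members called at P2 for Insm1 were 1 as reported, 2 with DESeq2, 2 without the filter on low counts, 0 with the replicate block, 0 with the sex term and 0 to 1 with a library left out. For Tead1/2 at P2 they were 0 as reported, 1 without the filter, 2 by DESeq2 without mutant 4 (an alternative chosen after seeing the data) and 0 to 1 with a library left out. Over all P7 cells of the Insm1 comparison 5 became 3 with the automatic doublet threshold. In GABAergic interneurons 2 became 1 with the replicate block (Insm1), and in endothelial cells 0 became 1 with DESeq2 and 1 with the block (Tead1/2).

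With each library left out in turn, members called ranged at P7, for Insm1 then Tead1/2, from 4 to 5 and 4 to 6 over all kept cells, 1 to 3 and 2 to 3 in the granule lineage, 3 to 4 and 2 to 5 in granule neurons, 1 to 2 and 1 to 2 in granule progenitors, 1 to 2 and 2 to 5 in GABAergic interneurons, 3 to 4 and 4 to 4 in astroglial cells, 0 to 1 and 0 to 1 in endothelial cells, 1 to 3 and 3 to 5 in meningeal fibroblasts, 0 to 0 and 1 to 3 in microglia, and 1 to 5 and 3 to 4 in the oligodendrocyte lineage. For both differences between the deletions it was 0 to 0. A group left with 1 library is assumed to vary like the others. Calls over all genes moved in the same fits. They were fewer than with all libraries in every P7 Insm1 comparison, and fewer or more with Tead1/2 deletion. These ranges are therefore not read as particular to the members.

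Of all genes, the P2 Insm1 fit called 135, DESeq2 313, no filter 212, the replicate block 64, the sex term 88 and leaving a library out 64 to 132. The P2 Tead1/2 fit called 0, DESeq2 1026, no filter 1287, the block 236, all 15 libraries together 4, the sex term 3, leaving a library out 0 to 646 and DESeq2 without mutant 4 1198. The P2 difference was called for 0 genes, by DESeq2 for 14, without the filter for 11, with the block for 1. Over all P7 cells Insm1 had 8107 against 5362 with the automatic doublet threshold, the granule lineage difference had 175 against 361 by DESeq2, and microglia had 928 against 563 (Insm1) and 1838 against 1083 (Tead1/2) with the block. Same-numbered libraries correlated in their deviations at -0.28 to 0.40 at P2 for Insm1, -0.14 to 0.03 for Tead1/2, -0.39 and -0.23 at P7 for Insm1, 0.12 and 0.18 for Tead1/2. Not every pair passed 0.1, so the numbers were not taken as pairs. At P7 number 1 marks the all-lobule dissection in each group, so the block there is the dissection too.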
